A study of Homo sapiens with 6 samples.

Results

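The S100 genes encode small calcium-binding proteins, and 10 of them were followed in the lung squamous carcinoma line SK-MES-1: S100A2, S100A4, S100A6, S100A8, S100A9, S100A10, S100A11, S100A13, S100A14 and S100A16. They are 10 of the 15761 genes in the deposited table and were taken from it by symbol. They were chosen by their measured read counts in the control and exosome libraries compared here, so the members' differences between the groups are given as a description, without p-values. The cells, an established human line labelled WT, were grown for 72 h in complete medium with exosomes at 20 µg/ml or without exosomes, with 3 RNA-seq libraries in each group. Exosomes are small membrane vesicles released by cells, and the ones used here were collected from lung fibroblasts in idiopathic pulmonary fibrosis, a scarring disease of the lung. No group received vesicles of another source. Whether the 3 libraries of a group stem from separate cultures is not stated in the labels, so p-values measure only the spread between these libraries, which may be technical.

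S100 proteins carry a pair of calcium-binding helix-loop-helix motifs called EF-hands and mostly act as dimers. On binding calcium they open a surface that grips partner proteins such as annexins, myosin and p53, and several members are also released from cells and signal through receptors such as RAGE and the TLR4 complex. In squamous epithelium they are known as markers of differentiation and inflammation, and most of the genes lie together on the long arm of chromosome 1, within the epidermal differentiation complex.

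With exosomes, S100A9 was the member that differed most, 6.33-fold higher, while S100A8, which encodes its dimer partner, stayed below 1 CPM (read counts scaled to a common library total) in every library. S100A4 was the member whose fitted level was lower, at 0.638 of its control level. S100A6, S100A10, S100A11, S100A13 and S100A2 were 1.30-fold to 1.69-fold higher, but these moderate differences shrank to between -0.035 and 0.23 on the log2 scale when the GC and length trend of the libraries was removed. S100A9 and S100A4 kept their direction and lay farthest from 0 of the tested members after removal. Their log2 fold changes were 2.66 and -0.65 before it and 2.20 and -1.10 after it. S100A16 turned from 0.17 to -0.26.

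S100A9 and S100A8 encode the subunits of calprotectin, a zinc- and calcium-binding dimer that is abundant in neutrophils and in inflamed squamous epithelium. S100A9 lies on chromosome 1 from 153357854 to 153361027 (GRCh38) on the plus strand, and S100A8 from 153390032 to 153391188 on the minus strand, about 29 kb away. S100A9 was measured at 7.62, 6.43 and 4.49 CPM in control libraries 1 to 3 and at 42.8, 46.2 and 35.5 CPM in exosome libraries 1 to 3. The exosome libraries all lay far above the control libraries. The log2 fold change was 2.66 ± 0.16 (SE; edgeR), at rank 7 from the highest of 12449 tested genes. With the GC and length trend removed it was 2.20 ± 0.12, at rank 9. Leaving out any of the 6 libraries moved it between 2.48 and 2.87. S100A8 had 2, 4 and 2 reads in the control libraries and 9, 8 and 6 in the exosome libraries, too few to enter the fit. A fit without the filter on low counts put it at 1.32 ± 0.77 on the log2 scale, a difference that rests on 8 reads against 23. Whether the authors' counting lost reads of S100A8 or of other genes near 0 was not tested; ACTN4, which nearly all cells transcribe, had 1 read over all libraries. Per transcript length (the authors' FPKM, scaled to gene length and library total), S100A8 made up 3.17% ± 1.44 of the summed S100A8 and S100A9 level in control and 1.24% ± 0.155 with exosomes (mean ± SD, n = 3). As counted, the level per length of the calprotectin pair was thus almost wholly S100A9 in both groups, on 2 to 9 reads of S100A8 per library. Myeloid cells are rich in both genes, and the myeloid markers PTPRC, ITGAM, ELANE and FCER1G were below 1 CPM in every library. Of the other myeloid markers in the table, CD68 was at 159 ± 17.2 CPM in control and 195 ± 4.61 CPM with exosomes (edgeR adjusted p = 0.0455; log2 fold change 0.21, and -0.11 with the trend removed) and CSF1R at 8.07 ± 1.12 and 4.68 ± 0.444 CPM. The 6 markers summed to 149 to 179 CPM in control and 195 to 204 CPM with exosomes, and their part in the S100A9 difference was not tested. In bulk RNA, fewer cells that transcribe a gene and less RNA per cell cannot be told apart.

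The promoter windows of the calprotectin genes, 250 bases before to 50 after the start, are shown because both hold TATAAA, the core letters of a TATA box, at the same distance from the start while the genes differ in level. They are RefSeq sequences of GRCh38.p14, 5′ to 3′ on each gene's own strand, with capitals marking TATAAA (gene strand) and GGGCGG or its complement (the Sp1 box, both strands). S100A9 is chr1:153357604-153357903, plus strand. S100A8 is chr1:153391024-153391323, minus strand, the window of the 3 listed for this gene that has the box near its start.
S100A9: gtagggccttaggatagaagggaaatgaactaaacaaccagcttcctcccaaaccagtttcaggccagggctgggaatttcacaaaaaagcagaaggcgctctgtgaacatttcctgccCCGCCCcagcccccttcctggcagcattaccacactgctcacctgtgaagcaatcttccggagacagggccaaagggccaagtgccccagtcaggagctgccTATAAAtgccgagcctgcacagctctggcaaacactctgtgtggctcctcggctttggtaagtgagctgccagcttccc
S100A8: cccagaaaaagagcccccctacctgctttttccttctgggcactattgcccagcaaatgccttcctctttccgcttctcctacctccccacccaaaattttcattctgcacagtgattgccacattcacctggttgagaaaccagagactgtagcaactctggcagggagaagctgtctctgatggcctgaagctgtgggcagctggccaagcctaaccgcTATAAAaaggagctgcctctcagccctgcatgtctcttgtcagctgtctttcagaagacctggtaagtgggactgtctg
In both windows TATAAA begins 29 bases before the start (position -29). Of 17 S100 genes in the table, 8 had TATAAA in a window, and in 7 it began 28 to 32 bases before a start. Counted by window, 9 of the 24 windows of S100 genes held it, with S100A8 counted more than once, against 7.33% of all 35116 windows. The C/EBP letters TTGCNNAA, searched on both strands, were found in S100A11 among the members and in 10.5% of all windows. TGANTCA (AP-1) was found in S100A2 among the members (7.71% of windows), and TTCNNNGAA (STAT, 7.66%) and the NF-kB motif (1.91%) in no member's window, both strands searched. The 3 windows of S100A8 overlap, and a match describes these 300 bases only.

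**Figure D1:**
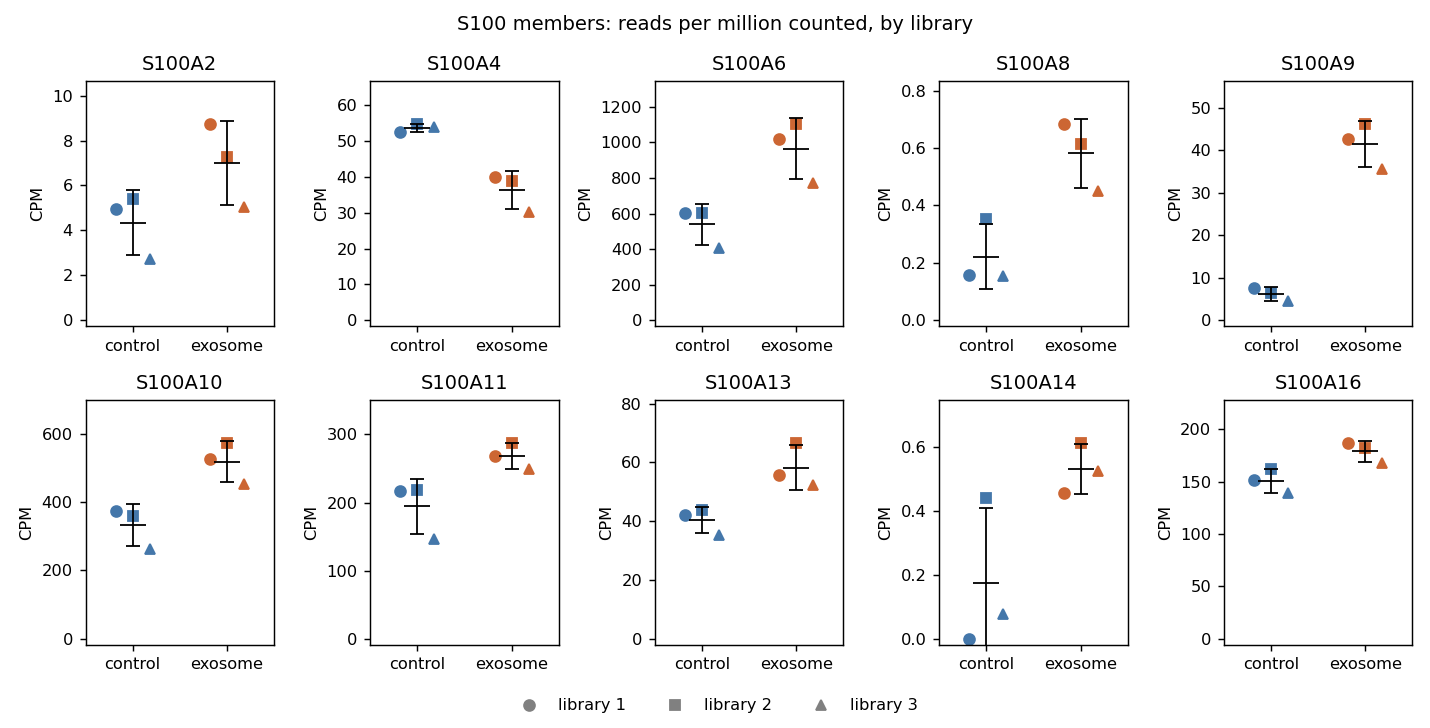
CPM of the 10 S100 members in each library (circle, square and triangle: libraries 1, 2 and 3; black bars: mean ± SD, n = 3; each panel has its own linear axis, and the lower bar of S100A14 in control runs past 0). S100A9 lies at 4.49 to 7.62 CPM in control and at 35.5 to 46.2 CPM with exosomes, S100A4 is lower in all exosome libraries, and library 3 is the lowest exosome library of every panel but S100A14.

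S100A4, known as metastasin and for its binding to non-muscle myosin, is linked to motile and mesenchymal-type cells. It lies on chromosome 1 from 153543613 to 153550136, and the S100A3 gene lies inside its annotated span on the same strand, so reads could have been split between them. Its levels were 52.6, 54.7 and 53.9 CPM in the control libraries and 39.9, 38.8 and 30.2 CPM in the exosome libraries. The control libraries were almost equal and all lay above the exosome libraries. The log2 fold change was -0.65 ± 0.10, at rank 692 from the lowest, and with the trend removed -1.10 ± 0.087, at rank 127. Leaving out any library moved it between -0.72 and -0.54.

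S100A6, S100A10 and S100A11 are the annexin-binding members. S100A6 (calcyclin) binds ANXA11 and the adaptor CACYBP, S100A10 lacks calcium-binding capacity and forms a permanent complex with ANXA2 that docks plasminogen and AHNAK at the membrane, and S100A11 (calgizzarin) binds ANXA1. S100A6, from 153534599 to 153536244 and 7.37 kb from S100A4, was measured at 605, 604 and 407 CPM in control and at 1017, 1103 and 772 CPM with exosomes. Every exosome library lay above every control library, and library 3 was the lowest of each group. The log2 fold change was 0.75 ± 0.20, and 0.21 ± 0.080 with the trend removed. S100A10, from 151982915 to 151994390, was measured at 375, 359.8 and 263 CPM in control and at 525, 574 and 454 CPM with exosomes. The groups were apart here too, and the log2 fold change of 0.55 ± 0.13 became 0.15 ± 0.074 with the trend removed. S100A11, from 152032506 to 152047907, was measured at 218, 218 and 147 CPM in control and at 269, 288 and 248.6 CPM with exosomes. All exosome libraries lay above the control libraries. The fitted log2 fold change of 0.38 ± 0.14 became -0.035 ± 0.074 with the trend removed, and was 0.23 without control library 3. An antisense gene overlaps S100A6 and another overlaps S100A11, and no source used here states whether reads were counted by strand, so reads of the partners cannot be told apart.

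The windows of S100A6 and S100A4, close neighbours on the minus strand, are shown because they hold different exact matches to the letters searched. The genes differed in opposite directions, and whether the motifs bear on this was not tested. S100A6 is chr1:153535942-153536241 and S100A4 is chr1:153545757-153546056, with capitals as above.
S100A6: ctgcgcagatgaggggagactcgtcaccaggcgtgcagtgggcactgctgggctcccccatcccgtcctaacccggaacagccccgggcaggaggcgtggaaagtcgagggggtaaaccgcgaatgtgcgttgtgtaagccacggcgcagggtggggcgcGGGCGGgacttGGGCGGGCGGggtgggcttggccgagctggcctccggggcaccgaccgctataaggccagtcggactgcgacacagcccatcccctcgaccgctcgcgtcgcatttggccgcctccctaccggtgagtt
S100A4: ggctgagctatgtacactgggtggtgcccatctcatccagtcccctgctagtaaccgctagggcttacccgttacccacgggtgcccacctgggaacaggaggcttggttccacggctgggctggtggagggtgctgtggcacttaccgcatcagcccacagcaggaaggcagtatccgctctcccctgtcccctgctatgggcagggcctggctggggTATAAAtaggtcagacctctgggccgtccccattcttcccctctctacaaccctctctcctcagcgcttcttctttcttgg
S100A6 has GGGCGG 3 times, with 2 of the matches overlapping, and no exact TATAAA, in a window of 69.3% GC. The S100A6 window does hold the near match TATAAG, which was not among the letters searched. S100A4 has TATAAA from position -31 and no GGGCGG, in a window of 60.7% GC. GGGCGG or its complement was in at least 1 window of 6 of the 10 members (S100A6, S100A9, S100A10, S100A11, S100A13 and S100A16). Some genes have several windows. Counted by window, it was in 7 of the 24 windows of S100 genes, members or not, against 45.0% of all windows.

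S100A13 takes part in the release of FGF1 and IL1A, which lack signal peptides. It lies from 153618787 to 153631360, overlaps S100A1 on the other strand, and was measured at 42.1, 43.8 and 35.2 CPM in control and at 55.7, 66.7 and 52.2 CPM with exosomes. The groups were apart, with a log2 fold change of 0.44 ± 0.11 that became 0.14 ± 0.088 with the trend removed. S100A16, a widely expressed member, was measured at 151, 162 and 139 CPM in control and at 187, 182 and 168 CPM with exosomes. The lowest exosome library lay just above the highest control library. The log2 fold change of 0.17 ± 0.079 turned to -0.26 ± 0.059 with the trend removed. S100A2, a p63 and p53 target of basal and squamous epithelium, was measured at 4.95, 5.38 and 2.71 CPM in control and at 8.73, 7.29 and 5.02 CPM with exosomes. Its groups overlapped, since exosome library 3 lay below control library 2. The log2 fold change of 0.61 ± 0.25 became 0.23 ± 0.22 with the trend removed, and without control library 3 it was 0.37. S100A14, an epithelial member, had 0, 5 and 1 reads in control and 6, 8 and 7 with exosomes, and was not tested. The count of 0 in control library 1 allows up to 3 reads, or 0.236 CPM.

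**Figure D2:**
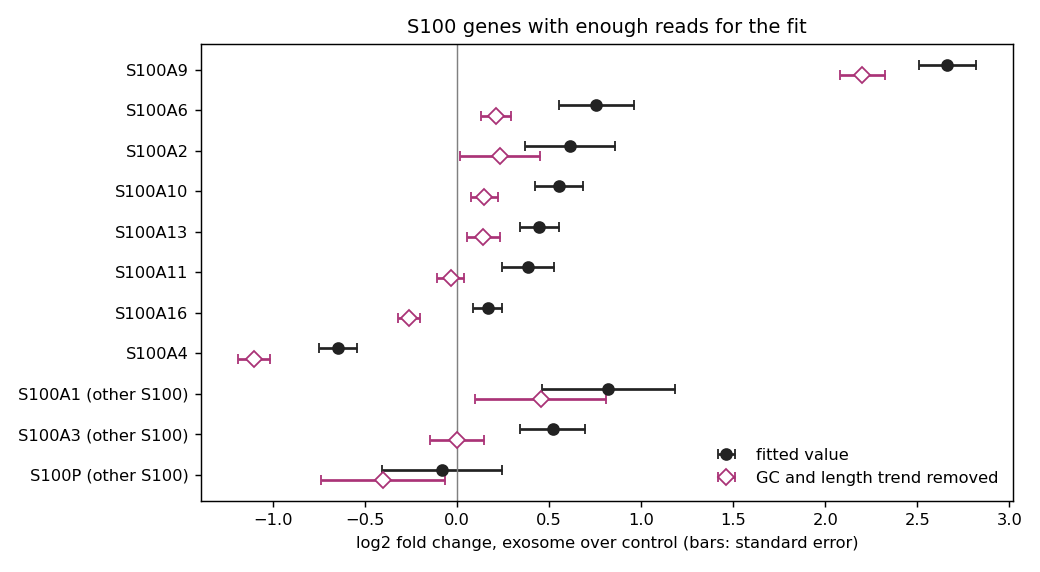
Log2 fold change (exosome over control) of the 8 S100 members and 3 other S100 genes that had enough reads for the fit, with standard errors. Filled circles are the fitted values and open diamonds those with the GC and length trend removed: S100A9 stays near 2.2 to 2.7 and S100A4 below 0, while the values of the other members move to between -0.26 and 0.23.

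Of the 10 members, 8 passed the filter on low counts, and 7 of these were called at an adjusted p under 0.05 in edgeR's quasi-likelihood test, against 51.7% of all 12449 tested genes. Of the 7, 6 were higher (25.6% of tested genes) and 1 was lower (26.1%). The exception was S100A16. In 7 of the 8 the libraries of the groups did not overlap in CPM, against 59.5% of tested genes, with 6 above (35.0%) and 1 below (24.5%). With the GC and length trend removed, 3 of 8 were called (S100A9 higher, S100A4 and S100A16 lower), against 35.4% of genes (18.2% higher, 17.3% lower). Because the members were named with this comparison in view, nothing is read from these counts, or from the members' calls under other settings below. The members' median log2 fold change was 0.50, against -0.0042 over all tested genes, and 0.14 against -0.0032 with the trend removed. The call of S100A6 ended without exosome library 1 or 2, that of S100A2 without control library 3 or exosome library 1 or 2, and that of S100A11 without any of the exosome libraries. Without both libraries numbered 3, a setting added after the data had been seen, 7 members were higher and 1 lower. Over all genes tested in that setting 3593 were higher and 3603 lower.

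The members' transcripts are short and GC-rich: 53.7% to 60.2% GC in the longest transcript, against a median of 48.4% over tested genes, with a median length of 876.5 bases over the 8 tested members against 3723. Across tested genes the median log2 fold change went from -0.39 in the lowest of 10 bins of GC content to 0.49 in the highest. The 8 tested members fell in bins 7, 8 and 9, whose medians were 0.16, 0.30 and 0.36. Within its own bin, S100A9 had the highest value, S100A4 stood at the 2.49 percentile, and the others lay between the 36.1 and 87.3 percentile. Each library had its own slope on GC content: the log2 level changed per 10 percentage points of GC by -0.12, -0.14 and -0.21 in control libraries 1 to 3 and by 0.24, 0.17 and 0.064 in exosome libraries 1 to 3. In each group library 3, the one with the lowest slope, was also the library with the lowest CPM for 7 of the 8 tested members in control (all but S100A4) and for 8 of 8 with exosomes. Over all tested genes, library 3 was the lowest in 36.3% of cases in control and in 44.0% with exosomes. What the GC trend reflects was not tested.

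**Figure D3:**
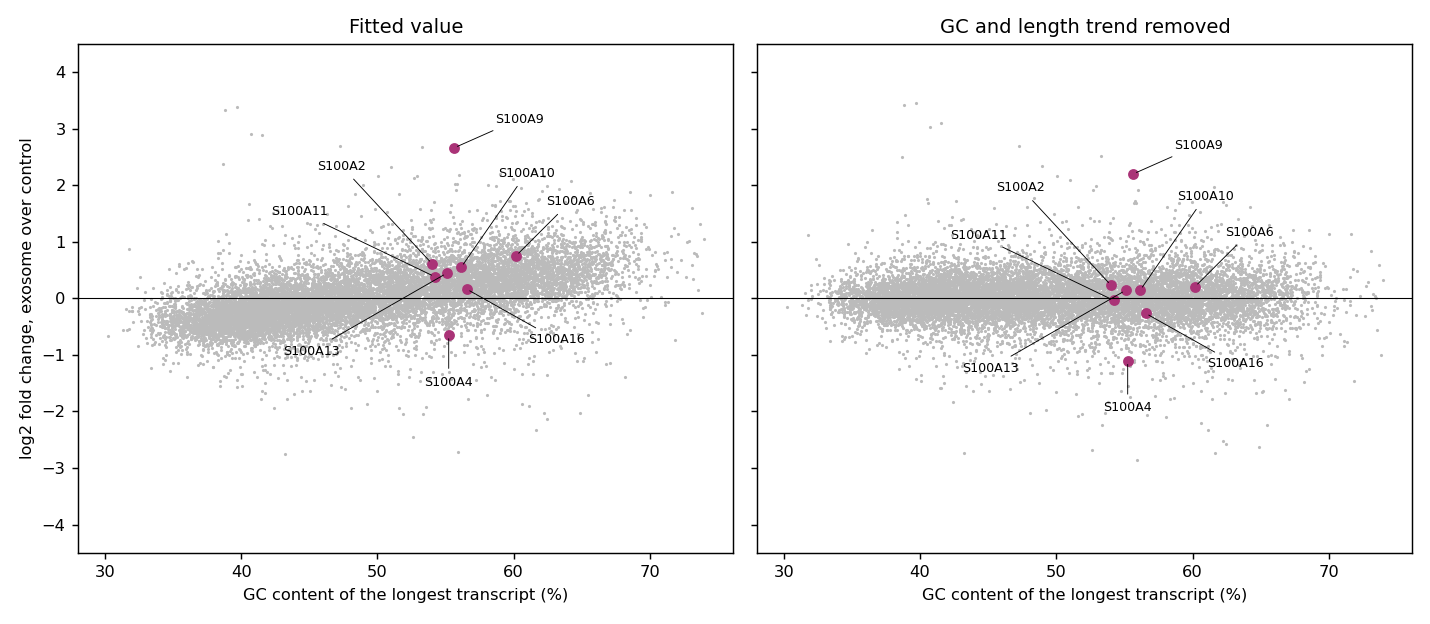
Log2 fold change (exosome over control) of 12449 tested genes (grey points) against the GC content of their longest transcript, as fitted (left) and with the GC and length trend removed (right). The 8 tested S100 members (named) lie in the rising right part of the cloud on the left, and S100A9 stands above and S100A4 below most of the cloud in both panels.

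By level per length, which allows genes to be compared, S100A6 led the family in control at 636 FPKM on average (rank 38 of 15197 genes with a level), followed by S100A11 at 327, S100A10 at 264, S100A16 at 93.5, S100A4 at 64.96, S100A13 at 44.0, S100A9 at 10.7, S100A2 at 2.77, S100A8 at 0.344 and S100A14 at 0.135. The ranges of neighbours in this order were apart over the control libraries, except those of S100A11 and S100A10, and of S100A8 and S100A14. Within each control library these pairs kept the same order too, for S100A8 and S100A14 on few reads. With exosomes S100A9, at 74.1, 80.0 and 61.6 FPKM, moved above S100A4, at 48.2, 46.9 and 36.5 FPKM. Its range overlapped that of S100A13, at 60.7, 72.8 and 56.9 FPKM, but within each exosome library S100A9 was the higher of the pair. The ratio of S100A6 to S100A4 per length was 9.79 ± 2.11 in control and 25.9 ± 1.63 with exosomes (mean ± SD, n = 3). All members together took 0.132% ± 0.0233 of counted reads in control and 0.207% ± 0.0277 with exosomes, and S100A6 alone gave 40.6% ± 1.65 and 46.3% ± 2.25 of the members' reads. The order of the mean levels was the same with pseudocounts of 0.1, 1 and 5 on the log2 scale.

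**Figure D4:**
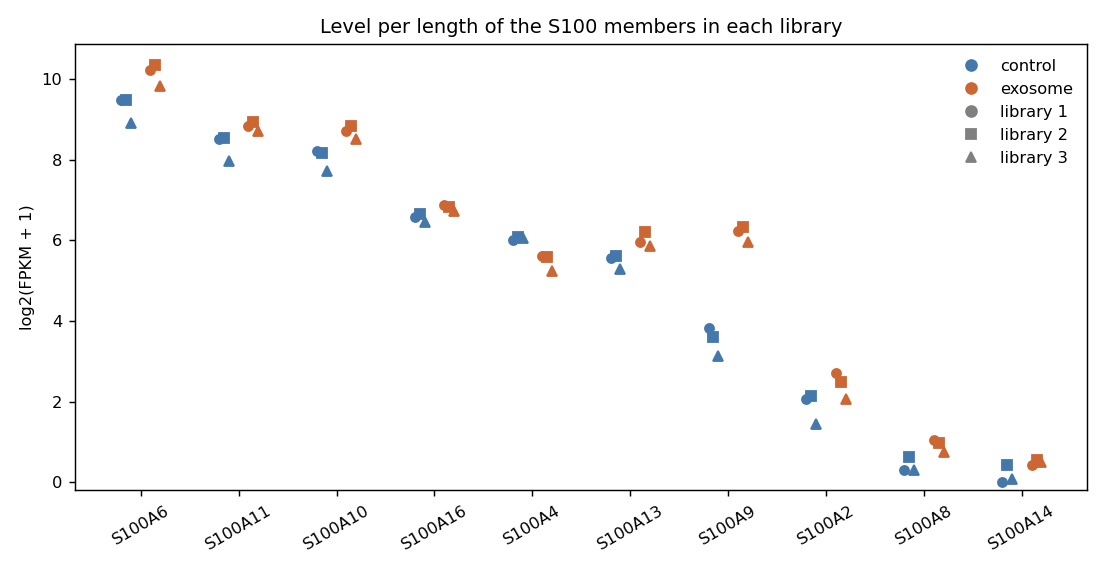
Level per length, log2(FPKM + 1), of the 10 members in each library, ordered by their control level (blue: control, orange: exosome; circle, square and triangle: libraries 1, 2 and 3). S100A6, S100A11 and S100A10 are the most abundant in both groups. S100A9 lies below S100A13 in control and above it within each exosome library, with overlapping ranges there.

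Of 11 other S100 symbols looked for, 7 were in the table and 3 had enough reads for the fit. S100A3, a cysteine-rich member of hair cuticle, was measured at 8.73, 9.87 and 7.04 CPM without and at 15.3, 13.8 and 9.75 CPM with exosomes. Control library 2 lay above exosome library 3, so the groups overlapped. Its log2 fold change of 0.52 ± 0.17 passed edgeR's test (adjusted p = 0.0167), ended without control library 3 or exosome library 1 or 2, and was -0.0014 with the trend removed. S100A1, the member of heart and skeletal muscle, had a log2 fold change of 0.82 ± 0.36 (edgeR adjusted p = 0.0617), and S100P, a member of placenta and several carcinomas on chromosome 4, had -0.083 ± 0.33 (edgeR adjusted p = 0.852). Without control library 1, S100A1 passed, at 1.37. S100A5 had 4, 1 and 2 reads in control and 7, 8 and 13 with exosomes. S100A12, which like S100A8 and S100A9 is a granulocyte protein and whose gene lies between them, had at most 2 reads in a library, S100G at most 2 and S100A7 (psoriasin) at most 3, which is at the limit that a count of 0 allows.

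The list of receptors of secreted S100 proteins also holds the intracellular adaptor MYD88, and AGER, the gene of RAGE, was not in the table. Of 9 genes of this list in the table, 7 were tested. With exosomes 3 were higher and 3 lower (median log2 fold change -0.0042), against 25.6% and 26.1% of all tested genes. With the trend removed 1 was higher and 3 lower (median -0.080), against 18.2% and 17.3%. CD14, the co-receptor of TLR4, rose from 23.04 ± 0.276 to 69.9 ± 8.19 CPM (log2 fold change 1.52 ± 0.10, edgeR adjusted p = 2.32e-10; 1.13 with the trend removed), while TLR4 itself was below 1 CPM in every library. ALCAM, an adhesion molecule reported to bind S100A8 and S100A9, fell from 390 ± 29.8 to 230 ± 20.1 CPM (-0.84 ± 0.083, edgeR adjusted p = 9.46e-08; -0.53 with the trend removed). MCAM, another adhesion receptor for this pair, fell from 31.5 ± 0.505 to 20.8 ± 3.65 CPM (-0.69 ± 0.12, edgeR adjusted p = 6.44e-05; -0.83 with the trend removed). BSG (basigin), a receptor of S100A9, passed at 0.39 ± 0.078 (edgeR adjusted p = 0.000329) but stood at -0.080 with the trend removed. MYD88 passed at 0.28 ± 0.090 (edgeR adjusted p = 0.0114) and stood at 0.14 with the trend removed. NPTN, also of this list, was lower (-0.32 ± 0.088, edgeR adjusted p = 0.00456, and -0.33 with the trend removed). Genes of this list thus differed in both directions. With the trend removed, CD14 was the one called higher, and ALCAM, MCAM and NPTN were called lower.

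Of 22 intracellular partners, 21 were tested, and 4 were higher and 11 lower (median -0.22), against 25.6% and 26.1% of all tested genes. With the trend removed 3 were higher and 9 lower, against 18.2% and 17.3%, and the median turned to 0.047. The annexins that bind S100A10 and S100A11 did not pass the test: ANXA2, partner of S100A10, was measured at 710 ± 108 CPM and 745 ± 18.9 CPM in the groups without and with exosomes (log2 fold change -0.015 ± 0.094, edgeR adjusted p = 0.908), and ANXA1, partner of S100A11, had 1235 ± 102 and 1317 ± 72.1 CPM (0.010 ± 0.081, edgeR adjusted p = 0.926). The ratio of S100A10 to ANXA2 per length was 0.6996 ± 0.0297 in control and 1.04 ± 0.0956 with exosomes, on levels that hold the GC and length trend. With the trend removed, the log2 fold changes were 0.15 for S100A10 and 0.12 for ANXA2, and 0.15 for ANXA1. ANXA11, which binds S100A6, rose from 212 ± 4.92 to 365 ± 15.2 CPM (0.71 ± 0.074, edgeR adjusted p = 2.06e-07; 0.72 with the trend removed). MYH9, the non-muscle myosin heavy chain bound by S100A4, fell from 2439 ± 145 to 1743 ± 73.4 CPM (-0.57 ± 0.076, edgeR adjusted p = 4.21e-06; -0.71 with the trend removed). The membrane linker EZR (-0.63, edgeR adjusted p = 1.19e-06) and the scaffold IQGAP1 (-0.61, edgeR adjusted p = 3.89e-06) fell as well, and stood at -0.76 and -0.34 with the trend removed.

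Of 20 transcription factors linked to S100 genes, 16 were tested, and 8 were higher and 2 lower (median 0.44), against 25.6% and 26.1% of all tested genes. With the trend removed 4 were higher and 1 lower (median 0.15), against 18.2% and 17.3%. CEBPD, a C/EBP factor of the acute-phase response, rose from 25.3 ± 5.005 to 95.0 ± 16.9 CPM (log2 fold change 1.83 ± 0.15, edgeR adjusted p = 8.24e-07; 1.14 with the trend removed). Its relative CEBPB was measured at 59.6, 59.6 and 39.4 CPM in control and at 125, 125 and 101 CPM with exosomes (1.07 ± 0.16, edgeR adjusted p = 0.000313; 0.49 with the trend removed). The AP-1 subunit JUNB rose by 1.40 ± 0.092 (edgeR adjusted p = 1.96e-10; 0.81 with the trend removed) and JUN by 0.55 ± 0.094 (edgeR adjusted p = 5.66e-05; 0.29). AHR, the aryl hydrocarbon receptor, fell from 547 ± 66.0 to 370 ± 27.1 CPM (-0.64 ± 0.087, edgeR adjusted p = 4.42e-06; -0.24 with the trend removed).

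Other genes lie among the S100 genes on chromosome 1. Of 6 such genes in the table, 4 were tested, and 0 were higher and 2 lower in edgeR's test (median -0.36), against 25.6% and 26.1% of all tested genes; 0 and 1 with the trend removed. FLG, which encodes filaggrin, fell from 35.5 ± 5.96 to 24.9 ± 0.811 CPM (-0.60 ± 0.12, edgeR adjusted p = 0.000206; -0.43 with the trend removed) and FLG2 from 4.22 ± 0.764 to 2.63 ± 0.284 CPM (-0.76 ± 0.24, edgeR adjusted p = 0.0119), a call that ended without control library 3 or exosome library 2 and with the trend removed. HRNR (-0.12 ± 0.24) and TCHH (0.86 ± 0.38) did not pass. Of 49 cornified envelope and differentiation complex symbols, 39 were not analysed here. Of 6 tested genes 1 was higher and 3 were lower, against 25.6% and 26.1% of all tested genes. With the trend removed 0 were higher and 2 lower, against 18.2% and 17.3%. The higher gene was EVPL (envoplakin, 0.25 ± 0.098, edgeR adjusted p = 0.035). EVPL did not pass without control library 2 or exosome library 1, and turned to -0.092 with the trend removed. PPL (periplakin, -0.56 ± 0.078, edgeR adjusted p = 6.11e-06) was lower, beside FLG and FLG2. Of 21 epithelial antimicrobial and alarm symbols, 4 were tested, and 2 were higher and 0 lower, against 25.6% and 26.1% of all tested genes. With the trend removed 1 was higher and 0 lower, against 18.2% and 17.3%. SLPI, a secreted protease inhibitor, rose from 22.1 ± 3.58 to 48.1 ± 3.05 CPM (1.04 ± 0.11, edgeR adjusted p = 3.85e-07, and 0.67 with the trend removed). LCN2, lipocalin 2, rose from 1.84 ± 0.737 to 3.77 ± 0.800 CPM (0.96 ± 0.30, edgeR adjusted p = 0.0105). Its call ended without control library 3 and, at 0.49, with the trend removed. CXCL1 (0.69 ± 0.55) and CXCL8 (-0.31 ± 0.30) did not pass.

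**Figure D5:**
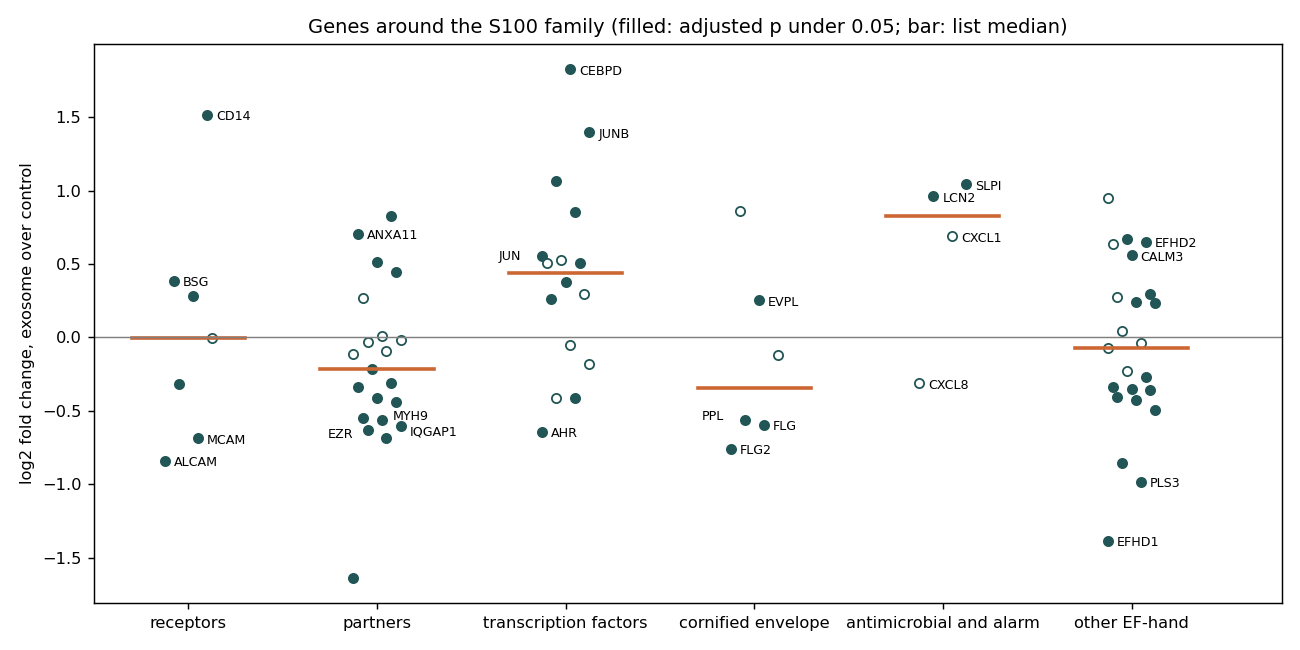
Log2 fold change (exosome over control) of tested genes in 6 lists around the S100 family (filled: adjusted p under 0.05; open: not passing; orange bar: list median). CD14, CEBPD and SLPI stand highest in their lists, and the partners have a median of -0.22.

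Other cytosolic EF-hand genes, which share the calcium-binding motif, were tested in 23 cases, of which 6 were higher and 10 lower (median -0.069), against 25.6% and 26.1% of all tested genes. With the trend removed 5 were higher and 11 lower (median -0.17), against 18.2% and 17.3%. EFHD1 fell from 12.1 ± 1.06 to 4.89 ± 1.19 CPM (-1.39 ± 0.18, edgeR adjusted p = 2.98e-06) and the actin bundler PLS3 from 841 ± 39.0 to 449 ± 29.2 CPM (-0.98 ± 0.078, edgeR adjusted p = 3.12e-09). EFHD2 (0.65 ± 0.089, edgeR adjusted p = 5.28e-06) and the calmodulin gene CALM3 (0.56 ± 0.090, edgeR adjusted p = 2.99e-05) rose, and stood at 0.20 and 0.25 with the trend removed.

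Markers were checked against the labels. Of 12 squamous and basal markers, KRT5, KRT6A, KRT14 and DSC3 were below 1 CPM in every library, TP63 was at 1.51 ± 0.461 and 2.28 ± 0.138 CPM, and EPCAM (68.1 ± 6.80 and 61.9 ± 3.05 CPM) and SFN (62.6 ± 9.73 and 127 ± 18.2 CPM) were present, so defining basal keratins were near 0 while other epithelial markers were present. The list summed to 171 to 203 CPM in control and 196 to 229 CPM with exosomes. Of 6 tested markers 1 was higher and 3 were lower, against 25.6% and 26.1% of all tested genes. SFN rose (0.94 ± 0.12, edgeR adjusted p = 1.45e-05, and 0.38 with the trend removed). CDH1 fell (-1.39 ± 0.10, edgeR adjusted p = 7.8e-10, and -1.34 with the trend removed), as did KRT17 and TRIM29. With the trend removed 1 was higher and 4 were lower, against 18.2% and 17.3%, with EPCAM added at -0.31. Of 12 myeloid markers, which bear on S100A8 and S100A9, 6 were in the table, and PTPRC, ITGAM, ELANE and FCER1G were below 1 CPM in every library, while CD68 and CSF1R were present at the levels given with S100A9. Of 12 fibroblast markers, 9 were in the table and summed to 539 to 571 CPM in control and 500 to 601 CPM with exosomes. COL5A1 made up most of this sum, at 440 ± 18.9 CPM in control and 503 ± 49.0 CPM with exosomes. It did not pass (0.11 ± 0.080, edgeR adjusted p = 0.266, and -0.048 with the trend removed). Of 5 tested fibroblast markers 3 fell (COL1A1, COL1A2 and COL6A3) and 0 rose in edgeR's test, against 26.1% and 25.6% of all tested genes. With the trend removed 4 were lower and 0 higher, against 17.3% and 18.2%. COL3A1, PDGFRA, FAP and THY1 were below 1 CPM in every library.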

How the data were processed

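Libraries were made from Trizol-extracted total RNA with a NEBNext Ultra kit, per the labels' protocols; STAR and GRCh38 (hg38) are named in the submitters' processing notes. No source used here names the counting program or says whether it used strand. Per the file headers, the authors deposited read counts per gene, which were used for all fits, and FPKM, used for levels between genes. The size-factor normalised signal, log2 fold changes and p-values that the authors deposited beside them were not used. The libraries held 11346639 to 13334508 counts over 14294 to 14540 detected genes, so that 1 CPM stands for 11.3 to 13.3 reads, and limits from a count of 0 cover counting error only. Groups came from the sample titles.

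Counts of 12449 genes (filterByExpr) were fitted with edgeR 4.0.16 in R 4.3.3 (TMM, robust quasi-likelihood, no covariate beside group). Adjustment of p-values ran over all of them (Benjamini-Hochberg, threshold 0.05). Standard errors were derived from each fold change and its F statistic. The GC and length trend of each library (GENCODE 29 longest transcripts, available for all 15761 genes; loess, span 0.3) was removed as an offset in an alternative. Table positions lie 1 base below GENCODE for 15490 genes and are given counted from 1. The members, gene lists and motifs were chosen with earlier results of these data known. Named genes are all members, the other S100 genes and up to 4 genes per list with the smallest adjusted p. ANXA1, ANXA2, CEBPB, TLR4, MYD88, NPTN, HRNR, TCHH, TP63, EPCAM, COL5A1, ACTN1, ACTN4 and markers under 1 CPM were named after their values were seen. The fits were tested on simulated counts. Without a GC and length trend, edgeR called 7 genes simulated as unchanged, and edgeR with the trend removed called 8, of 12347 fitted. With the libraries' trend added, edgeR called 2851 such genes and edgeR with the trend removed 12, of 12359 fitted. The adjusted p-values printed here are from edgeR without removal of the trend. Within groups the chi-square per gene was 2.31 to 16.2, so no libraries agreed within sampling noise; library 3 lay farthest from the others in each group. Alternatives were RLE factors, library totals, 2 other filters, DESeq2 1.42.0, limma-voom (limma 3.58.1), a threshold of 0.01, a replicate block, the trend removed, each library left out and, added later, both libraries numbered 3 left out. Protein sequences were not used here.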

Additional observations from a re-analysis of the deposited data

How the results depend on the processing

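Under RLE factors, the other filters on low counts, DESeq2 and limma-voom, 5 to 6 members were higher and 1 lower, with S100A2 lost in DESeq2 and S100A11 in limma-voom; with library totals 7 were higher, S100A16 added, and 1 lower. With the GC and length trend removed, 1 member was higher and 2 lower (2 and 2 with the replicate block and the trend removed together), and 3 were higher at a threshold of 0.01. Leaving out each library gave 3 to 6 members higher and 1 lower, beside 2503 to 3234 higher and 2608 to 3375 lower over all genes. The count of higher members was 3 without exosome library 1 and 3 without exosome library 2. These counts of members are a description, since the members were chosen by the same read counts. The log2 fold change of S100A9 ranged from 2.20 to 2.87 and that of S100A4 from -1.10 to -0.54 over these alternatives, as a description. S100A11 turned to -0.035 and S100A16 to -0.26 with the trend removed (-0.0287 and -0.26 with the block as well), as did S100A3 (-0.0014 and -0.0049), BSG (-0.0803 and -0.0789), EVPL (-0.0923 and -0.0893) and CD68 (-0.11 and -0.11). S100P turned to 0.0077 with limma-voom, 0.40 without control library 3 (-0.32 to 0.40 over the libraries left out) and 0.48 without both libraries numbered 3.

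Same-numbered libraries deviated together only weakly (correlations 0.066, 0.10 and 0.21). Even so, each control library correlated best with the exosome library of its own number. For control library 1 the margin was small, at 0.066 against 0.062 with exosome library 2. The labels state no pairing, and whether same-numbered libraries were handled together was not tested. With the replicate block alone 7 members were higher and 1 lower. Over all genes 3444 were then higher and 3524 lower, against 3191 and 3244. Scaled by library totals, 3811 genes were higher and 2496 lower (60.4% of calls higher against 49.6%). With the trend removed 2148 genes were lower. Other S100 genes higher numbered 2 with library totals, no filter on low counts and limma-voom, 0 with the trend removed (0 with the block too) and 0 at 0.01, and 0 to 2 over the libraries left out. Genes of the receptor list higher numbered 1 with the trend removed, with or without the block. Transcription factors higher numbered 4 and lower 1 in both of those settings, and 5 higher at 0.01. Cornified envelope genes higher numbered 2 with library totals and without both libraries numbered 3, 0 with the trend removed in either fit and at 0.01, and 0 to 1 over the libraries left out. Antimicrobial genes higher numbered 1 with the trend removed in either fit and at 0.01, and 1 to 2 over the libraries left out. EF-hand genes higher numbered 3 at 0.01 and 3 to 8 over the libraries left out. Genes of the chromosome 1 cluster higher numbered 1 with library totals and without both libraries numbered 3, and lower 1 with the trend removed in either fit and at 0.01, and 1 to 2 over the libraries left out. The cause of these changes was not tested. With 3 libraries a group and 1 CPM at 11.3 to 13.3 reads, S100A8 and S100A14 are limited by their few reads.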

Other observations

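ACTN4, an actin cross-linker with an EF-hand domain that nearly all cells transcribe, had 1 read in control library 2 and 0 in the other libraries (mean 0.0294 CPM in control), while its relative ACTN1 had 1084 ± 7.90 and 909 ± 7.62 CPM. Whether reads of other genes near 0, such as S100A8, S100A14, KRT5 and KRT14, were lost in the counting was not tested.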
